A study of Populus ussuriensis with 18 samples.

Results

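The 6 root libraries taken at 6 and 12 h of polyethylene glycol (PEG) treatment were set against the 12 root libraries taken at 0 h and at 24, 48 and 120 h, the times that are whole numbers of days after the start. Libraries were grouped by sampling time, and the comparison was set up with earlier results of these data known. The 6 libraries are 6 of 18 in the series, and 12080 of the 12994 transcripts in the table were tested. All plants were wild-type Populus ussuriensis, a poplar of northeast Asia, grown in vitro under a light and dark cycle and moved as 3-week-old seedlings with uniform roots to liquid medium with 6% PEG, a polymer that lowers the water potential of the medium. The 6 and 12 h groups were under PEG for those times, the 24, 48 and 120 h groups were under PEG for longer, and the 0 h group had no time in it. Each group had 3 biological replicates. Every replicate pooled the roots of several seedlings, so errors describe the variation among pools and not among single plants. No seedlings were kept in liquid medium without PEG, and 0 h is the only control.

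The clock hour of transfer and of harvest is not given in the sources used here. The labels state that roots were taken at one time, which does not settle whether transfers were staggered or harvests spread over 5 days. If harvests followed a single transfer, the 6 and 12 h roots were taken at other hours of the day than all of the rest, and they were also the earliest under stress. Time of day and early stress therefore cannot be told apart in any value given here. Transfer from solid to liquid medium is shared by all treated groups and cannot be told apart from PEG either.

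Plants hold a circadian clock in most of their cells, in which transcription factors that are abundant in the morning and others that are abundant in the evening repress each other. LHY is one of the morning factors, and its transcript in Arabidopsis is highest around dawn and low in the afternoon and evening. Water deficit acts partly through abscisic acid (ABA), whose synthesis is limited by 9-cis-epoxycarotenoid dioxygenase (NCED), and through chaperones, scavenging enzymes, cell wall changes and altered ion uptake. In roots, many genes of nitrate, sulfate and carbon use follow both the day and the supply of sugar from the shoot.

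The measured value was FPKM, the fragments of a transcript scaled to its length and to the mapped fragments of the library, whose sum per library was 1067374 to 1159874. Differences are on the scale log2(FPKM + 1), which understates the change of transcripts with low values. A called transcript had a Benjamini-Hochberg adjusted p under 0.05 from limma, over all transcripts tested, and an absolute difference of at least 1. The libraries of 48 h replicate 3 and 120 h replicate 1 stood apart from their replicates. They differed by at least 1 on the log2 scale from the mean of their partners in 651 transcripts (5.39% of those tested) at 48 h and 454 (3.76%) at 120 h, against 265 to 410 transcripts in the other 16 libraries. Without these libraries 762 transcripts were called in place of 766, of which 721 were the same transcripts with the same sign (an alternative chosen after seeing the data), and all 92 transcripts named here kept their side of the threshold. Of the 466 transcripts called higher at 6 and 12 h without them, the library of 48 h replicate 3 was above both of its partners in 248 (53.2%) and below both in 152, where over all tested transcripts it was above both in 37.6%. The library of 120 h replicate 1 was above both of its partners in 261 of the 466 (56.0%), against 43.2% of all tested. Both libraries thus lay toward the 6 and 12 h level more often in these transcripts, while of the 296 called lower they were below both partners in 131 and 114 and above both in 133 and 150. The spread between replicates was wide in short transcripts, with a median SD of 1.26 on the log2 scale under 300 bases and 0.10 at 1000 bases or longer.

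As a look at the tissue label, FPKM was summed over 7 transcripts of root functions and 20 of photosystem and chlorophyll-binding proteins. None of them was at 0 in all libraries. The reference transcripts came from pooled RNA of these same samples, so that outcome was nearly fixed in advance. At every time the photosystem sums were above the root marker sums, so the sums cannot serve as a check of the label. The summed FPKM of the root markers was 363 to 517 at 6 and 12 h, with a median of 448, and 405 to 1565 at the other times, with a median of 1017. The summed FPKM of the photosystem list was 1206 to 2118 at 6 and 12 h, with a median of 1680, and 2575 to 5280 at the other times, with a median of 3372. The photosystem sums did not overlap, and those of the root markers did. In bulk roots, fewer cells of a type and less RNA per cell cannot be told apart.

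In the main comparison 468 transcripts were higher and 298 lower at 6 and 12 h, which are 3.87% and 2.47% of all tested and together 6.34%. Without the fold minimum 3763 were higher (31.2% of all tested) and 3858 lower (31.9%) at the same adjusted p. List counts without the fold minimum below are to be read against these shares, and list counts of calls against 3.87% higher and 2.47% lower. The difference was at least 2 on the log2 scale for 92 called transcripts that were higher and 31 that were lower. Called transcripts that were higher thus outnumbered those that were lower among large differences, whereas small differences were about evenly split. The median over all tested transcripts was -0.00092, and other scalings of the libraries placed it between -0.03 and 0.03. In 1056 transcripts all 6 libraries of 6 and 12 h lay above the other 12, which is 8.74%, and in 876 they lay below, which is 7.25%, together 16.0%. Libraries that do not overlap in this way are called separate below. Of the called transcripts, 249 of the 468 and 208 of the 298 had libraries that did not overlap.

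The 0 h libraries and the later ones entered the comparison with different weight, so it was also taken apart. Against 0 h alone, 6 and 12 h had 703 higher transcripts (5.82% of all tested) and 473 lower ones (3.92%), together 9.74%. Against 24, 48 and 120 h they had 413 higher (3.42%) and 340 lower (2.81%), together 6.23%. These comparisons share the libraries of 6 and 12 h. Of the 468 transcripts higher in the main comparison, 312 were called higher against both, 86 against 0 h only and 66 against the later times only. Of the 298 lower ones, 169 were called lower against both, 26 against 0 h only and 102 against the later times only.

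The whole-day times were not alike. The moderated F test over 0, 24, 48 and 120 h passed in 6360 transcripts, and 1205 of them, 9.98% of all tested, also had time means that spread over at least 1 on the log2 scale. The times 24, 48 and 120 h together differed from 0 h in 559 transcripts, 4.63%, with 363 higher (3.00%) and 196 lower (1.62%). Of the 468 transcripts higher at 6 and 12 h, 311 had a whole-day range of at least 1 and 44 had one of at most 0.5, against 7715 or 63.9% of all tested with a range of at most 0.5. Of the 298 lower ones, 100 had a range of at least 1 and 54 one of at most 0.5.

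**Figure D1:**
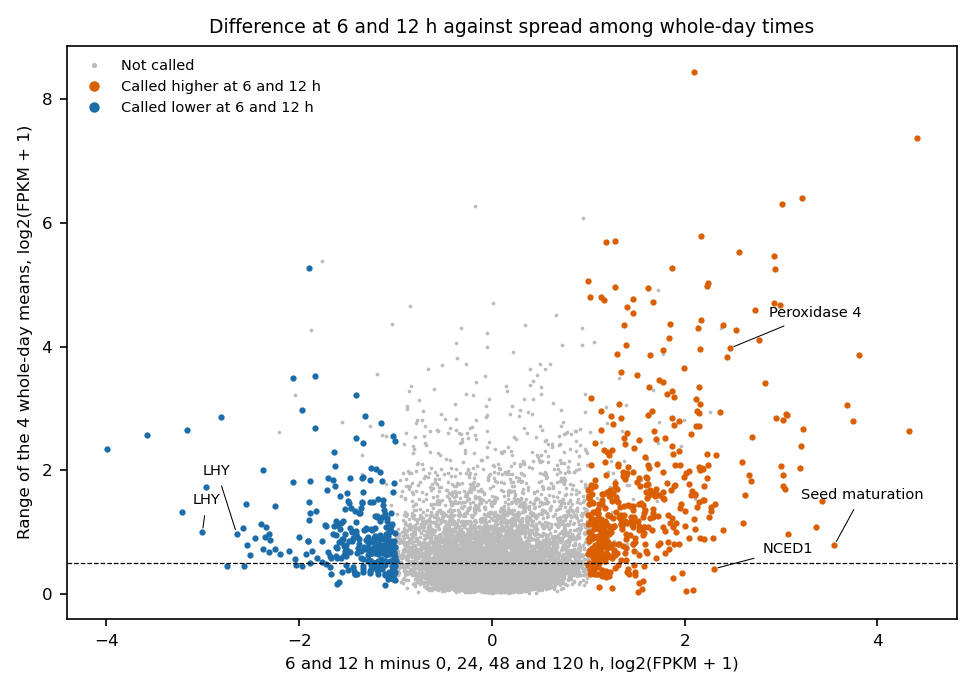
Each point is 1 of 12080 transcripts. The horizontal axis gives the mean of 6 and 12 h minus the mean of 0, 24, 48 and 120 h, and the vertical axis the range of those 4 time means, both on the scale log2(FPKM + 1). Orange points are the 468 called higher, blue points the 298 called lower and grey points the rest, and the dashed line marks a range of 0.5. The higher transcripts reach larger ranges than the lower ones, and few of either lie under the line.

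Protein names came from the study's annotation, which covered 1051 of the tested transcripts, 678 of them with a protein name. Of these 1051, 822 are printed in the study's tables of differentially expressed genes (DEGs), which were chosen on these same libraries, so the direction of any list below is not independent evidence. Of the 822, 231 were called in the main comparison, or 28.1%. Of the 229 annotated elsewhere, 15 were called, or 6.55%, close to the share over all transcripts. Several transcripts often carry 1 protein name, and reads of near-identical copies may be split between them. In the paper, changes at 6 h from 0 h are printed opposite in direction to the FPKM here for some identifiers. Lower there were the exchanger NCL (f2p60_2293_3245) and 4-coumarate-CoA ligase (f2p60_2079_21713). Higher there were Peroxidase 5 (f4p60_1269_8729), potassium transporter 5 (f2p60_2781_19668) and the exchanger CAX3 (f4p60_1851_22830). Identifiers, names and values may not be aligned between the sources, and this was not tested.

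**Figure D2:**
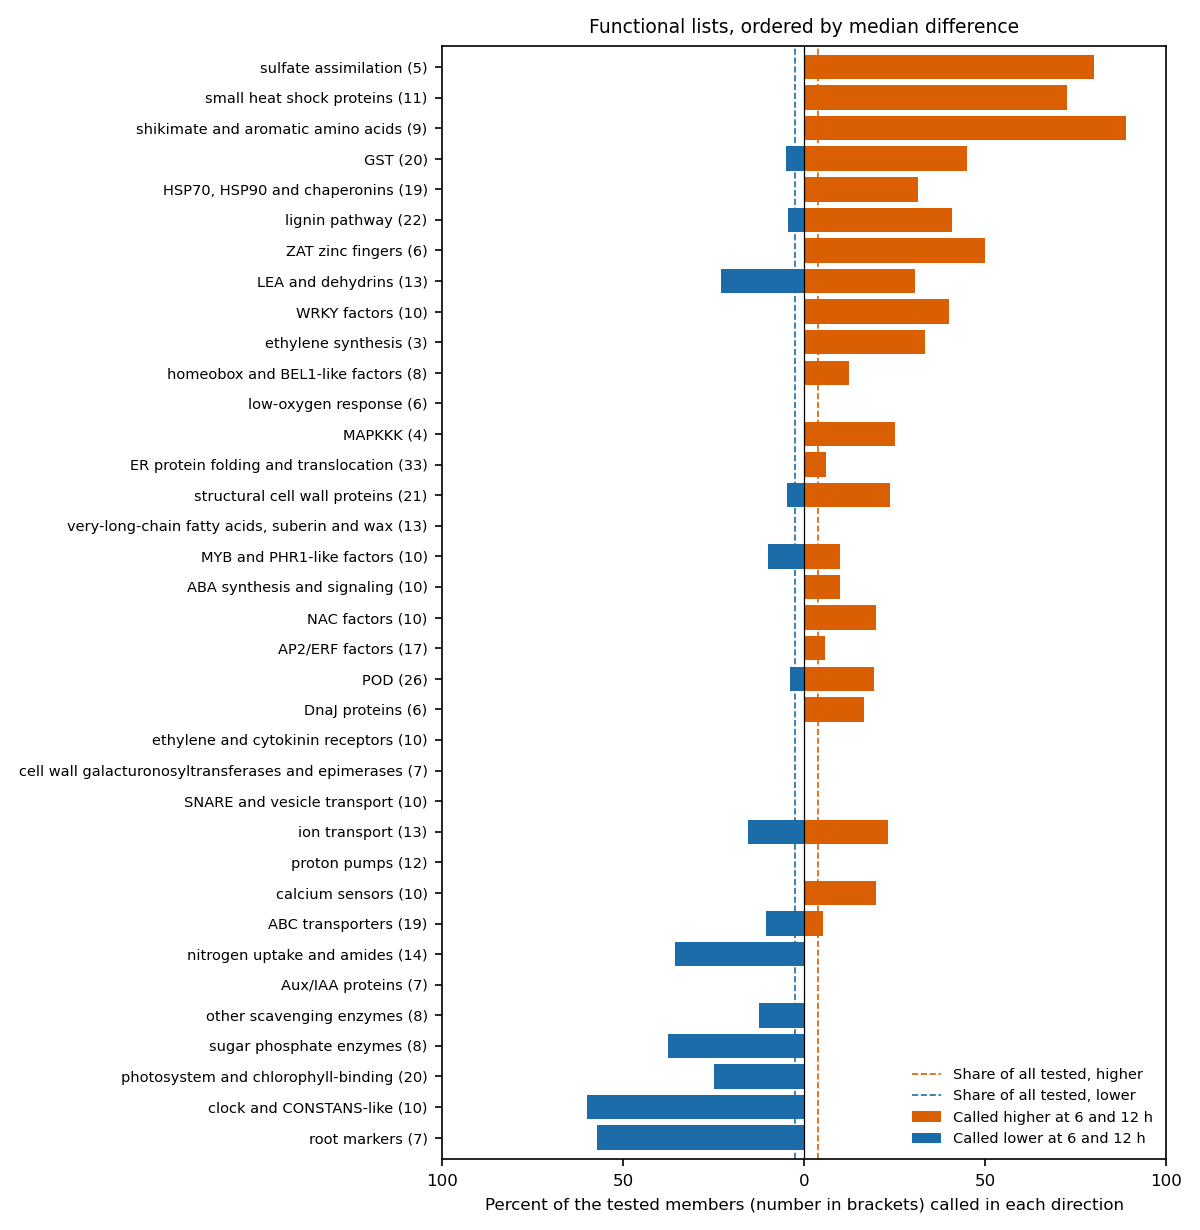
Bars give the percent of the tested members of 36 functional lists that were called higher at 6 and 12 h (orange, right) or lower (blue, left), with the number tested in brackets and dashed lines at 3.87% and 2.47%, the shares of all transcripts. Lists are ordered by their median difference, from sulfate assimilation with 4 of 5 called higher at the top to the root markers with 4 of 7 called lower at the bottom.

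LHY and the CONSTANS-like zinc fingers, B-box factors that act in light and day length responses, were mostly lower at 6 and 12 h. Of 10 tested transcripts 6 were called lower, none was called higher and 9 were lower without the fold minimum, with a median of -1.09. The comparison was set up after values of these transcripts in the same libraries had been read, so they describe it and do not test it. The same holds for the adjusted p values of the main comparison given for them below. With a pseudocount of 5 in place of 1, 3 of the 10 were called.

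Both LHY transcripts were low at 6 and 12 h and high at every whole-day time. The transcript f2p60_925_30878 had 7.27, 6.96 and 7.08 FPKM at 6 h and 10.6, 9.09 and 9.71 FPKM at 12 h. It had 50.5, 45.9 and 54.0 FPKM at 0 h, 81.0, 61.2 and 71.2 FPKM at 24 h, 89.2, 83.8 and 79.1 FPKM at 48 h, and 133, 87.2 and 88.7 FPKM at 120 h. The 6 early libraries lay below all of the other 12, with a difference of -3.00 ± 0.08 (SE; limma adjusted p = 2.6e-13), and -2.97 without the libraries of 48 h replicate 3 and 120 h replicate 1. LHY did not return to the 0 h level, since its mean at 24, 48 and 120 h was 0.74 ± 0.11 above 0 h (adjusted p = 8e-05), short of the fold minimum. The longer transcript f4p60_3026_19232 had 4.45 to 6.13 FPKM at 6 and 12 h, with a median of 5.05, and 22.4 to 64.7 FPKM at the other times, with a median of 40.5. Its difference was -2.65 ± 0.09 (adjusted p = 1.9e-12), again with no overlap. The difference of 12 h minus 6 h was 0.41 and 0.30 for these transcripts, so neither was called different between the early times.

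CONSTANS-LIKE 5 (f4p60_1731_23714) was also below every whole-day library. It had 27.0, 29.8 and 30.8 FPKM at 6 h and 17.1, 17.9 and 16.8 FPKM at 12 h, against 47.7 to 84.2 FPKM at the other times, with a median of 59.4. The difference was -1.40 ± 0.04 (adjusted p = 9.4e-14). CONSTANS-LIKE 4 (f8p60_1473_7558) had the same order without overlap, 65.0 to 88.3 FPKM at 6 and 12 h and 137 to 166 FPKM at the other times, but its difference of -0.94 ± 0.03 was under the fold minimum.

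Of 3 transcripts named CONSTANS-LIKE 2, a pair was low at 6 h only. f2p60_1469_7402 had 3.97, 4.29 and 4.39 FPKM at 6 h and 16.2, 16.7 and 16.2 FPKM at 12 h, against 15.1 to 35.1 FPKM at the other times. f3p60_1428_7616 had 5.75, 4.71 and 6.33 FPKM at 6 h and 26.1, 23.6 and 22.6 FPKM at 12 h, against 16.9 to 33.6 FPKM at the other times. Both were called lower in the main comparison, by -1.33 ± 0.04 and -1.05 ± 0.06, although their 12 h libraries lay within the range of the whole-day ones, and neither was called when 12 h alone was compared (-0.46 and -0.08). The third transcript of that name, f2p60_1586_24574, had 5.96 to 6.22 FPKM at 6 h and 6.32 to 6.40 FPKM at 0 h, and 11.5 to 14.9 FPKM at all later times.

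B-box domain protein 30 (f3p60_1089_29115), another B-box protein, was at 1 level through 12 h and at a higher one afterwards. It had 3.85 to 6.43 FPKM at 6 and 12 h and 4.80 to 5.14 FPKM at 0 h, which lie together, and 13.6 to 25.4 FPKM at 24, 48 and 120 h. Its main difference of -1.14 ± 0.08 came from the later times, at -1.53, while that against 0 h was 0.03. CONSTANS-LIKE 6 (f3p60_1878_4842) and CONSTANS-LIKE 3 (f2p60_1604_24470) stayed at or under 2.64 FPKM in every library, with differences of -0.51 ± 0.12 and 0.11 ± 0.11, and neither was called. The summed photosystem FPKM given above was also lower at 6 and 12 h, and its part in these values was not tested.

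**Figure D3:**
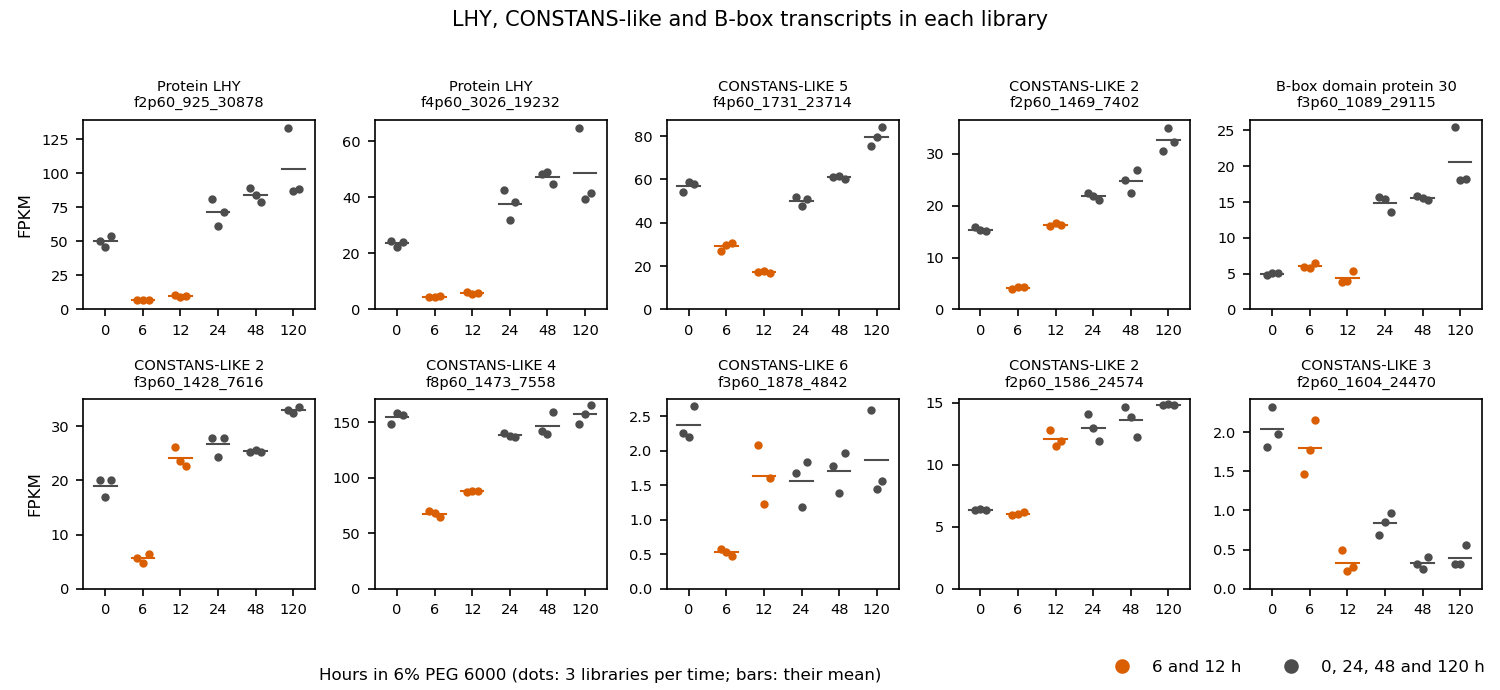
FPKM of the 10 LHY, CONSTANS-like and B-box transcripts in each of the 18 libraries, against hours in PEG, with a bar at the mean of each time. Orange marks 6 and 12 h and grey the other times. Both LHY transcripts sit between 4.45 and 10.6 FPKM at 6 and 12 h and at 22.4 FPKM or more elsewhere, while the first 2 CONSTANS-LIKE 2 transcripts are low at 6 h only.

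Among other regulators, called transcripts were mostly higher. Of 10 WRKY factors 4 were called higher (median 0.65), of 6 ZAT zinc fingers 3 (median 0.81) and of 10 NAC factors 2 (median 0.12). Of 17 AP2/ERF factors 1 was called higher (median 0.09), of 8 homeobox factors 1 (median 0.53), and of 4 MAPKKK 1 (median 0.39). None of these lists had a member called lower. Of all tested, 3.87% were called higher and 2.47% lower. The AP2/ERF count was near the higher share, and at the lower share lists this small would hold few lower calls. Without the fold minimum 5 NAC factors were higher and 4 lower. Of 10 MYB and PHR1-like factors 1 was called higher and 1 lower, and of 10 calcium sensors 2 were called higher and none lower, with a median of -0.30 and 5 members lower without the fold minimum. With 12 h alone 1 of the WRKY factors was called.

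The 3 largest differences among WRKY factors, which bind W-box elements and act in defence and stress responses, were transcripts named WRKY40, and they had different time courses. f2p35_1482_25329 had 22.2, 24.7 and 26.4 FPKM at 6 h and 9.68, 8.05 and 10.5 FPKM at 12 h, against 2.40 to 7.43 FPKM at the other times, without overlap (1.58 ± 0.07, adjusted p = 8e-11). f2p60_1831_5110 had 27.8 to 28.5 FPKM at 6 h, and its 12 h libraries, at 6.04 to 6.44 FPKM, lay among those of the whole-day times, at 2.86 to 7.60 FPKM. f3p60_1311_8503 had 82.4 to 93.2 FPKM at 6 and 12 h, 78.9 to 83.0 FPKM at 24 h and 20.8 to 36.3 FPKM at 0, 48 and 120 h, so that 24 h stood with the early times. Another transcript named WRKY40 (f2p53_770_33148) was at -0.06 and not called.

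ZAT11 (f2p24_969_11433) and ZAT10 (f2p17_1128_9942), C2H2 zinc fingers induced by several stresses in Arabidopsis, had libraries that did not overlap. ZAT11 had 34.8 to 38.7 FPKM at 6 and 12 h, with a median of 36.5, and 2.56 to 21.2 FPKM at the other times, with a median of 9.12 (1.88 ± 0.10, adjusted p = 2.2e-10). ZAT10 had 70.4 to 76.7 FPKM at 6 and 12 h and 17.1 to 55.9 FPKM at the other times (1.05 ± 0.12, adjusted p = 2.8e-06). A second, low ZAT11 transcript (f2p60_1084_29151, 1.49 to 5.85 FPKM at 6 and 12 h, 0 to 2.52 FPKM at the other times) overlapped and lost its call under quantile normalization, at 0.94.

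NAC72 (f2p60_1192_9367), known in Arabidopsis as an ABA-responsive factor, was highest at 12 h, with 24.4, 23.4 and 27.97 FPKM. It had 6.04, 8.47 and 8.22 FPKM at 6 h and 1.86 to 8.26 FPKM at the whole-day times, so 6 h overlapped them. NAC2 (f7p60_1432_25632) had the opposite order, with 162, 179 and 174 FPKM at 6 h, 57.0 to 61.4 FPKM at 12 h and 35.5 to 57.5 FPKM at the other times. The main differences were 1.45 ± 0.17 and 1.12 ± 0.04. Other transcripts named NAC72 were not called and did not share a direction, at -0.58 (f2p60_1906_22508), -0.67 (f3p60_1826_22964) and 0.43 (f2p60_1426_25757).

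The ethylene-responsive factor 1A (f3p60_1131_9867) had 132 to 141 FPKM at 6 h, 75.9 to 81.6 FPKM at 12 h and 27.6 to 70.5 FPKM at the other times, without overlap (1.13 ± 0.09). CML42 (f2p60_1046_10683), a calmodulin-like calcium sensor, had 37.0 to 43.5 FPKM at 6 and 12 h and 8.53 to 28.1 FPKM at the other times (adjusted p = 5.6e-08). These groups were separate, as were those of MAPKKK 18 (f5p60_1300_26955), a kinase at the top of a phosphorylation cascade, which had 15.5 to 21.6 FPKM at 6 and 12 h and 3.42 to 12.2 FPKM at the other times (1.19 ± 0.09). PBP1 (f2p60_721_33528), a calcium-binding partner of a protein kinase in Arabidopsis, had 21.3 to 41.1 FPKM at 6 and 12 h and 3.90 to 23.8 FPKM at the other times, with overlap (1.07 ± 0.19). Another transcript named PBP1 (f2p60_745_332685) went the other way, at -0.80, and was not called.

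Of the ABA list, 1 of 10 transcripts was called, the NCED1 transcript f2p21_2499_2742. It had 2.35, 1.62 and 2.46 FPKM at 6 h and 22.6, 23.5 and 24.0 FPKM at 12 h. It had 0.42 to 0.52 FPKM at 0 h and 0.50 to 1.11 FPKM at 24, 48 and 120 h, so both early times lay above all others and 12 h far above 6 h. The main difference was 2.30 ± 0.10 (adjusted p = 3.7e-11) and that of 12 h minus 6 h 2.97 ± 0.16 (adjusted p = 7.2e-09), and 6 h alone, at 0.82, was under the fold minimum. The list median was 0.12, and 4 PYL receptor transcripts and an ABA 8'-hydroxylase were not called. Protein phosphatase 2C 3 (f2p60_1754_23479), of a family that restrains ABA signaling in Arabidopsis, was just under the fold minimum, at 0.98 (adjusted p = 1.5e-08).

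ATHB-7 (f2p60_1403_7712), a homeodomain-leucine zipper factor induced by ABA and water deficit in Arabidopsis, had the same order of times. It had 12.2, 11.4 and 12.3 FPKM at 6 h and 26.4, 28.4 and 28.8 FPKM at 12 h, against 3.73 to 7.35 FPKM at the other times, with a median of 5.59. The groups did not overlap (1.57 ± 0.10, adjusted p = 3.3e-09), and the 4 whole-day means lay within 0.21 on the log2 scale. A second transcript named ATHB-7 (f2p60_859_12333) was at 0.70 and not called.

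Late embryogenesis abundant (LEA) proteins and dehydrins, which protect proteins and membranes in drying tissue, moved in both directions. Of 13 transcripts 4 were called higher and 3 lower, with a median of 0.74, and 7 were called different between 12 and 6 h, where 4.13% of all transcripts were. The 18 kDa seed maturation protein (f9p60_852_12520) had the largest difference of any transcript with a protein name. It had 132, 109 and 134 FPKM at 12 h and 4.82, 5.45 and 3.85 FPKM at 6 h, against 0.32 to 2.22 FPKM at the other times, without overlap (3.55 ± 0.12, adjusted p = 3.4e-12). LEA D-29 (f2p45_1593_6461) had 38.1, 39.0 and 35.02 FPKM at 12 h, and its 3.85 to 5.13 FPKM at 6 h lay within the 2.46 to 5.98 FPKM of the other times. SRC1 (f2p60_1369_7946), a dehydrin first named for its regulation by cold in soybean, had 45.0 to 47.8 FPKM at 6 h, 20.0 to 24.3 FPKM at 12 h and 3.44 to 20.3 FPKM at the other times.

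The Lea5 transcripts went the other way. f3p60_781_32678 had 602 to 798 FPKM at 6 and 12 h, with a median of 695, and 1864 to 4314 FPKM at the other times, with a median of 2506 (-1.91 ± 0.09, adjusted p = 6.8e-11). f29p60_719_13862 had 903 to 1459 FPKM at 6 and 12 h and 2469 to 6273 FPKM at the other times (-1.60 ± 0.09, adjusted p = 4.7e-10). In neither did a library of 6 or 12 h reach the lowest of the other 12.

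Transcripts of sulfate assimilation were mostly higher at 6 and 12 h. ATP sulfurylase activates sulfate, and 5'-adenylylsulfate reductase (APR) then reduces it to sulfite on the way to cysteine and glutathione. Of 5 transcripts 4 were called higher, all 4 without overlap, and all 5 were higher without the fold minimum, with a median of 1.73.

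The most abundant APR transcript (f2p35_1882_4853) had 704, 712 and 723 FPKM at 6 h and 389, 398 and 405 FPKM at 12 h, against 128 to 229 FPKM at the other times, with a median of 149 (1.73 ± 0.05, adjusted p = 1.1e-12). f2p60_1697_23846 had 39.9 to 41.8 FPKM at 6 h and 13.2 to 15.5 FPKM at 12 h, against 1.81 to 7.20 FPKM at the other times (2.61 ± 0.08, adjusted p = 9.7e-13). f3p60_1765_23380 had 45.2 to 51.2 FPKM at 6 h and 15.5 to 17.0 FPKM at 12 h, against 2.34 to 9.40 FPKM at the other times (2.28 ± 0.05, adjusted p = 3.9e-14). All 3 were highest at 6 h, next at 12 h and, among the whole-day times, highest at 24 h.

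ATP sulfurylase 1 (f2p42_1919_4627) had 426, 419 and 437 FPKM at 6 h and 160, 158 and 156 FPKM at 12 h, against 76.6 to 110 FPKM at the other times. Its whole-day means lay within 0.17 on the log2 scale, and 24, 48 and 120 h differed from 0 h by 0.07 (adjusted p = 0.55). ATP sulfurylase 2 (f2p60_1990_4373) was not called, at 0.40.

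The shikimate pathway makes the aromatic amino acids, and phenylalanine from it feeds the lignin pathway. Of 9 shikimate and aromatic amino acid transcripts 8 were called higher, 7 had libraries that did not overlap, and the median was 1.18. Chorismate synthase (f2p50_1721_5718) had 122, 141 and 136 FPKM at 6 h and 88.4, 80.6 and 84.8 FPKM at 12 h, against 41.8 to 56.7 FPKM at the other times. Those groups were separate, with a difference of 1.14 ± 0.04 (adjusted p = 4.5e-12).

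Transcripts of the enzyme that opens the pathway, phospho-2-dehydro-3-deoxyheptonate aldolase, had differences of 1.47 ± 0.08 (f2p60_573_15264), 1.43 ± 0.07 (f2p60_577_35526) and 1.23 ± 0.03 (f2p60_1596_24598). The last of these had 211 to 220 FPKM at 6 h and 181 to 190 FPKM at 12 h, against 58.4 to 124 FPKM at the other times. All 3 were separate from the whole-day libraries and lower at 12 h than at 6 h by less than 1 on the log2 scale. With 12 h alone, 5 of the 9 members were called higher.

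In the lignin pathway 9 of 22 transcripts were called higher and 1 lower, with a median of 0.86, and 18 were higher without the fold minimum. MYB58 (f3p60_1224_9210), an activator of lignin genes in Arabidopsis, had 39.2 to 47.2 FPKM at 6 h and 31.8 to 34.9 FPKM at 12 h, against 24.5 to 26.4 FPKM at 24 h and 1.87 to 12.2 FPKM at 0, 48 and 120 h (2.16 ± 0.08, adjusted p = 3.7e-12). Cinnamyl alcohol dehydrogenase (f2p60_1499_25217), which makes the lignin alcohols, had 290 to 477 FPKM at 6 and 12 h and 48.2 to 156 FPKM at the other times (2.15 ± 0.13, adjusted p = 1.9e-09). Both were separate, and the 48 h libraries of the dehydrogenase held 71.5, 65.5 and 151 FPKM, the last being replicate 3.

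4-coumarate-CoA ligase (f2p60_2079_21713), which activates the precursors, had 284 to 396 FPKM at 6 and 12 h, 218 to 245 FPKM at 24 h and 51.6 to 111 FPKM at 0, 48 and 120 h (1.71 ± 0.03, adjusted p = 1.5e-14). The cinnamate hydroxylase CYP73A100 (f2p60_956_11446) had 266 to 284 FPKM at 6 h, while its 12 h libraries, at 150 to 156 FPKM, lay with those of 24 h, at 152 to 153 FPKM. An isoflavone reductase-like transcript (f2p60_1283_8588) had 87.6 to 125 FPKM at 6 and 12 h, 61.8 to 65.4 FPKM at 24 h and 13.1 to 19.7 FPKM at 0, 48 and 120 h. In the ligase and the isoflavone reductase-like transcript 24 h stood between the early times and the rest, and in CYP73A100 it lay within the range of 12 h, so that these differences were not between 6 and 12 h and whole days alone. Chavicol O-methyltransferase (f3p60_1106_10142), a methylating enzyme placed in this list, was the lower one, with 80.6 to 114 FPKM at 6 and 12 h and 177 to 279 FPKM at the other times (-1.04 ± 0.07).

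Small heat shock proteins are chaperones that hold unfolding proteins. Of 11 transcripts 8 were called higher, none lower, and all 11 were higher without the fold minimum, with a median of 1.56. The 17.9 kDa class II protein (f4p60_842_31916) had 150 to 192 FPKM at 6 and 12 h, with a median of 173, and 20.3 to 77.8 FPKM at the other times, with a median of 34.6 (2.11 ± 0.15, adjusted p = 1.5e-08). The 22.7 kDa class IV protein (f3p60_885_12148) had 14.4 to 20.5 FPKM at 6 and 12 h and 0.59 to 11.7 FPKM at the other times (2.27 ± 0.28, adjusted p = 4.8e-06), and 2.44 without the library of 48 h replicate 3, which held the 11.7 FPKM. The 17.3 kDa class I protein (f3p60_787_32671) had 42.6 to 60.5 FPKM at 6 and 12 h and 5.31 to 42.2 FPKM at the other times, the highest again being 48 h replicate 3 (2.11 ± 0.23).

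HSP70, HSP90 and chaperonins had 6 of 19 called higher, none called lower and 18 higher without the fold minimum, with a median of 0.91. With 6 h alone 18 were called higher, and 10 without the 24 h libraries. The luminal-binding protein BiP, the HSP70 of the endoplasmic reticulum (ER), led them. Its transcript f2p20_2641_20032 had 298 to 315 FPKM at 6 h and 199 to 218 FPKM at 12 h, against 126 to 137 FPKM at 24 h and 58.9 to 93.6 FPKM at 0, 48 and 120 h (1.58 ± 0.05, adjusted p = 9.7e-13). A second BiP transcript (f2p35_2260_3272) and HSP70 protein 17 (f2p52_3326_1172), another ER member, had differences of 1.36 ± 0.09 and 1.32 ± 0.07 without overlap.

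Other ER folding and translocation transcripts moved by less. Of 33, 2 were called higher and none lower, 27 were higher and 3 lower without the fold minimum, with a median of 0.38. The count of calls was near the share of all tested called higher, 3.87%. In 16 the 6 and 12 h libraries were all above the others, and in 1, protein disulfide isomerase-like 1-3 (f3p60_1621_24371, -0.56), all below them. Of all tested, 8.74% were separate above and 7.25% below. Calnexin (f2p60_2014_21981), a lectin chaperone of glycoproteins, had 350 to 495 FPKM at 6 and 12 h and 145 to 268 FPKM at the other times (1.16 ± 0.04, adjusted p = 1.2e-12). Protein disulfide isomerase-like 2-3 (f2p60_1650_24144) was at the threshold, at 1.00, and under it with values centred on the median transcript, at 0.99, or quantile-normalized, at 0.96. The BiP partner ERDJ3B (f2p20_1486_7288) had 89.9 to 130 FPKM at 6 and 12 h and 40.1 to 71.1 FPKM at the other times (1.04 ± 0.04), the only one of 6 DnaJ proteins called.

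Glutathione S-transferases (GSTs), which join glutathione to reactive compounds, had 9 of 20 called higher and 1 lower, with a median of 0.91. The parC-type transcript f2p60_894_312621 had 118 to 132 FPKM at 6 h and 53.1 to 61.0 FPKM at 12 h, against 5.79 to 33.6 FPKM at the other times (2.59 ± 0.18, adjusted p = 7.6e-09). A second parC transcript (f9p60_892_31310, 2.04 ± 0.17) and GST L3 (f3p60_1525_6924, 1.64 ± 0.03) were also separate, and GST L3 had 388 to 591 FPKM at 6 and 12 h and 98.1 to 245 FPKM at the other times. GST F11 (f3p60_1160_28302) was lower, with 340 to 608 FPKM at 6 and 12 h and 789 to 1322 FPKM at the other times (-1.11 ± 0.06).

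Class III peroxidases, secreted enzymes that use hydrogen peroxide in the wall, had 5 of 26 called higher and 1 lower, with a median of 0.07. Peroxidase 4 (f2p59_1311_26810) had 157 to 185 FPKM at 6 and 12 h, against 6.65 to 9.86 FPKM at 0 h, 136 to 150 FPKM at 24 h, 38.2, 39.8 and 69.3 FPKM at 48 h and 12.2 to 15.2 FPKM at 120 h. It was separate by a small margin (2.47 ± 0.11, adjusted p = 4.2e-11), and its whole-day means ranged over 3.97 on the log2 scale. The Peroxidase 5 transcript f4p60_1269_8729 had 42.9 to 47.6 FPKM at 6 h and 25.2 to 25.8 FPKM at 12 h, against 67.9 to 72.8 FPKM at 0 h, 49.4 to 56.9 FPKM at 24 h and 0.86 to 8.35 FPKM at 48 and 120 h. All 6 libraries of 6 and 12 h lay below those of 0 and 24 h, and against 0 h the transcript was lower (-1.02 ± 0.23, adjusted p = 0.0013), so its call in the main comparison (1.27 ± 0.16) rests on 48 and 120 h.

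The other scavenging enzymes differed in 1 direction. All 8, among them catalases, superoxide dismutases, an ascorbate peroxidase and a peroxiredoxin, were lower without the fold minimum, with a median of -0.70, and 1 was called. Catalase-2 (f2p60_1814_23063), which breaks down hydrogen peroxide in peroxisomes, had 28.7 to 31.7 FPKM at 6 h and 42.8 to 48.8 FPKM at 12 h, against 70.2 to 153 FPKM at the other times (-1.38 ± 0.05, adjusted p = 6.9e-12). The 2 groups were separate. The photosystem sums were also lower at 6 and 12 h, and their part in this result was not tested.

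Photosystem and chlorophyll-binding transcripts were lower at 6 and 12 h. Of 20 transcripts 5 were called lower, none higher, and 19 were lower without the fold minimum, with a median of -0.91. The most changed, a photosystem I psaK transcript (f2p60_568_15367), had 154 to 199 FPKM at 6 h and 234 to 262 FPKM at 12 h, against 479 to 961 FPKM at the other times (-1.67 ± 0.08, adjusted p = 1.5e-10). A second psaK transcript (f3p60_633_14712) had 3.76 to 6.29 FPKM at 6 h, 10.8 to 12.1 FPKM at 12 h and 15.9 to 26.8 FPKM at the other times (-1.34 ± 0.10). The summed level of the list was lowest at 6 h, with 1206 to 1312 FPKM, next at 12 h, with 2048 to 2118 FPKM, and highest at 120 h, with 4089 to 5280 FPKM.

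Of 8 sugar phosphate enzymes 3 were called lower and none higher, with a median of -0.71, while without the fold minimum 5 were lower and 3 higher. The chloroplast fructose-bisphosphate aldolase 2, an enzyme of carbon fixation and sugar breakdown, had 54.9 to 81.9 FPKM at 6 and 12 h and 155 to 779 FPKM at the other times in f4p60_1583_24681 (-2.06 ± 0.09, adjusted p = 3.3e-11). In f5p60_1679_6100 it had 137 to 266 FPKM at 6 and 12 h and 385 to 1006 FPKM at the other times (-1.45 ± 0.06). Neither pair of groups overlapped, and the highest value in each was 120 h replicate 1. 6-phosphogluconolactonase 1 (f3p60_1085_10495), an enzyme of the pentose phosphate pathway, had 78.2 to 113 FPKM at 6 and 12 h and 134 to 294 FPKM at the other times (-1.21 ± 0.05).

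Transcripts of nitrogen uptake were lower where they were called. Of 14 tested transcripts of uptake and amide metabolism 5 were called lower and none higher, with a median of -0.51. The nitrate transporter 2.1 transcript f2p60_1894_22575, a high-affinity carrier of the root surface, had 94.6 to 103 FPKM at 6 h and 23.4 to 26.8 FPKM at 12 h. It had 448 to 465 FPKM at 0 h, 38.4 to 39.9 FPKM at 24 h, 247, 245 and 70.2 FPKM at 48 h and 255, 438 and 439 FPKM at 120 h. The 24 h libraries lay between the 6 and 12 h ones, so the groups overlapped, and 6 h alone was not called, at -0.88. The main difference was -1.83 ± 0.22 (adjusted p = 3.5e-06), and -1.98 without the library of 48 h replicate 3, which held the 70.2 FPKM. The second transcript of that name, f2p37_1996_4289, had the same order of times (-2.07 ± 0.22).

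Ammonium transporter 1 member 2 was called lower in f3p60_245_39366, with 5.80 to 22.02 FPKM at 6 and 12 h and 45.1 to 141 FPKM at the other times, but the transcript is only 245 bases long and its replicates spread widely (-2.58 ± 0.26). A longer transcript of that name was also called (f2p31_1645_6180, -1.33), and 2 others were not (-0.57 and -0.47). These transporters make up 6 of the 7 root markers, so the 4 markers called lower are counted in both lists, and the suberin enzyme CYP86A1 (f2p43_1953_4496) was at -0.16 and not called.

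Ion transport had members in both directions, with 3 of 13 called higher, 2 lower and a median of -0.06. Potassium transporter 5 (f2p60_2781_19668), a high-affinity uptake carrier of roots, had 14.7 to 18.8 FPKM at 6 h and 8.35 to 9.51 FPKM at 12 h, against 23.3 to 64.4 FPKM at the other times (-1.73 ± 0.07, adjusted p = 1.4e-11). The vacuolar cation/proton exchanger CAX3 (f4p60_1851_22830), which loads calcium into vacuoles, had 1.79 to 2.75 FPKM at 6 h and 6.77 to 9.24 FPKM at 12 h, against 10.7 to 25.4 FPKM at the other times (-1.61 ± 0.16). Both were separate. Higher at 6 and 12 h were the calcium pump f2p57_4009_433, with 28.7 to 35.3 FPKM at 6 h, 14.0 to 16.0 FPKM at 12 h and 6.43 to 11.3 FPKM at the other times (1.25 ± 0.05), and the sodium/calcium exchanger NCL (f2p60_2293_3245).

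Structural cell wall proteins had 5 of 21 called higher and 1 lower, with a median of 0.18. A proline-rich extensin-related transcript (f9p60_914_11928) had 1774 to 1837 FPKM at 6 h and 1281 to 1362 FPKM at 12 h, against 44.0 to 49.4 FPKM at 0 h, 1107 to 1199 FPKM at 24 h, 363 to 407 FPKM at 48 h and 117 to 162 FPKM at 120 h. It was separate (2.73 ± 0.06, adjusted p = 2e-14) and declined from 24 to 120 h, and its whole-day means ranged over 4.59 on the log2 scale, with the lowest at 0 h and the highest at 24 h. The repetitive proline-rich transcript f3p60_1008_29997 had 618 to 787 FPKM at 6 and 12 h and 687 to 867 FPKM at 24 h, which overlapped. The proline-rich protein DC2.15 (f3p60_670_34256) was lower, with 2.09 to 3.70 FPKM at 6 and 12 h and 8.74 to 38.2 FPKM at the other times (-2.25 ± 0.15, adjusted p = 3.4e-09).

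ABC transporters, which pump many substrates across membranes, had 1 of 19 called higher and 2 lower, with a median of -0.34. Of all tested, 3.87% were called higher and 2.47% lower, so these counts do not set the list apart. ABCG5 (f3p44_2143_3768) had 0.87 to 2.46 FPKM at 6 and 12 h and 4.03 to 8.95 FPKM at the other times (-1.34 ± 0.10), and ABCA2 (f2p30_3242_1275) had 33.5 to 43.1 FPKM at 6 and 12 h and 6.72 to 28.4 FPKM at the other times (1.10 ± 0.17). Both were separate. Another transcript named ABCA2 (f3p42_3136_1465) went the other way, at -0.44, and was not called. ABCA10 (f3p60_706_33620) had libraries at 0 in both groups, and its call (-1.64 ± 0.66, adjusted p = 0.042) was lost without any of 13 single libraries.

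Of 3 transcripts of ethylene synthesis 1 was called, an ACC oxidase (f2p51_1479_7181), the enzyme of the last step, with 62.0 to 104 FPKM at 6 and 12 h and 19.8 to 55.8 FPKM at the other times (1.06 ± 0.06). Further called transcripts with a protein name that were lower and separate were bZIP43 (f5p60_870_31556, 20.6 to 24.7 FPKM at 6 and 12 h, 32.7 to 133 FPKM at the other times) and an NADPH-dependent alkenal/one oxidoreductase (f3p60_1416_25856, 6.46 to 14.0 FPKM and 23.6 to 110 FPKM in the same groups). Their differences were -1.65 ± 0.06 and -1.89 ± 0.11.

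Some lists had no member called in either direction. Of all tested, 6.34% were called, so at that share lists this small would hold few calls or none. These were 13 transcripts of very-long-chain fatty acids, suberin and wax (median 0.15), 12 proton pumps (-0.07), 10 SNARE and vesicle proteins (-0.05), 10 ethylene and cytokinin receptors (0.02), 7 wall galacturonosyltransferases and epimerases (0.02) and 6 low-oxygen transcripts (0.40). The same held for 7 Aux/IAA proteins, repressors of auxin response, but 6 of them were lower without the fold minimum, with a median of -0.59. By limma without the fold minimum, 31.2% of all tested transcripts were higher and 31.9% lower. In the same way 4 suberin and wax transcripts were higher, near that share, and none lower. The counts were 3 higher and 5 lower for proton pumps, 4 and 3 for SNARE and vesicle proteins, 2 and 2 for the receptors, 3 and 1 for the wall enzymes, and 4 and 1 for the low-oxygen list.

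A smaller group had separate libraries and whole-day means that lay close together. Separate libraries and a whole-day range of at most 0.5 were found in 28 of the 468 higher transcripts and 44 of the 298 lower ones. Of all tested, 16.0% were separate and 63.9% had such a range, and the share with both traits was not counted. Those with a protein name were 6 higher and 8 lower ones. A range of this size does not make the whole-day times equal, since the F test among them still passed for NCL (adjusted p = 1.9e-05), the nitronate monooxygenase, chorismate synthase, GST F11, the methyltransferase and the 3 MADS-box transcripts, and 12 h was called different from 6 h in NCED1, ATHB-7, ATP sulfurylase 1, CAX3 and psaK. The limits of this group used the libraries of this comparison, so its members are described and not tested.

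The higher ones were NCED1, ATHB-7, ATP sulfurylase 1 and chorismate synthase, given above, NCL, and a nitronate monooxygenase, an oxidizing enzyme. NCL (f2p60_2293_3245) had 335, 341 and 329 FPKM at 6 h and 166, 166 and 169 FPKM at 12 h, against 91.0 to 123 FPKM at the other times. The nitronate monooxygenase (f2p60_1273_27139) had 116 to 120 FPKM at 6 h and 81.9 to 89.6 FPKM at 12 h, against 38.3 to 58.7 FPKM at the other times. The times at which these transcripts were highest differed, with 12 h for NCED1 and ATHB-7 and 6 h for the other 4.

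The lower ones were CAX3, psaK, GST F11 and the methyltransferase given above (psaK being f3p60_633_14712), MYB48, and 3 transcripts named MADS-box transcription factor 18, a member of a family of developmental regulators. The most abundant of these (f3p60_1097_29028) had 54.9, 51.95 and 54.4 FPKM at 6 h and 57.7, 43.9 and 58.98 FPKM at 12 h, against 96.6 to 136 FPKM at the other times, with a median of 123 (-1.14 ± 0.05, adjusted p = 7e-11). The others, f2p60_940_30685 and f2p22_763_32729, had differences of -1.18 ± 0.07 and -1.11 ± 0.06, and in none of the 3 did 12 h differ from 6 h by more than 0.32. MYB48 (f2p60_1165_28240), a MYB factor, had 51.1 to 79.9 FPKM at 6 and 12 h and 109 to 178 FPKM at the other times, and its difference of -1.01 ± 0.08 was just past the threshold.

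**Figure D4:**
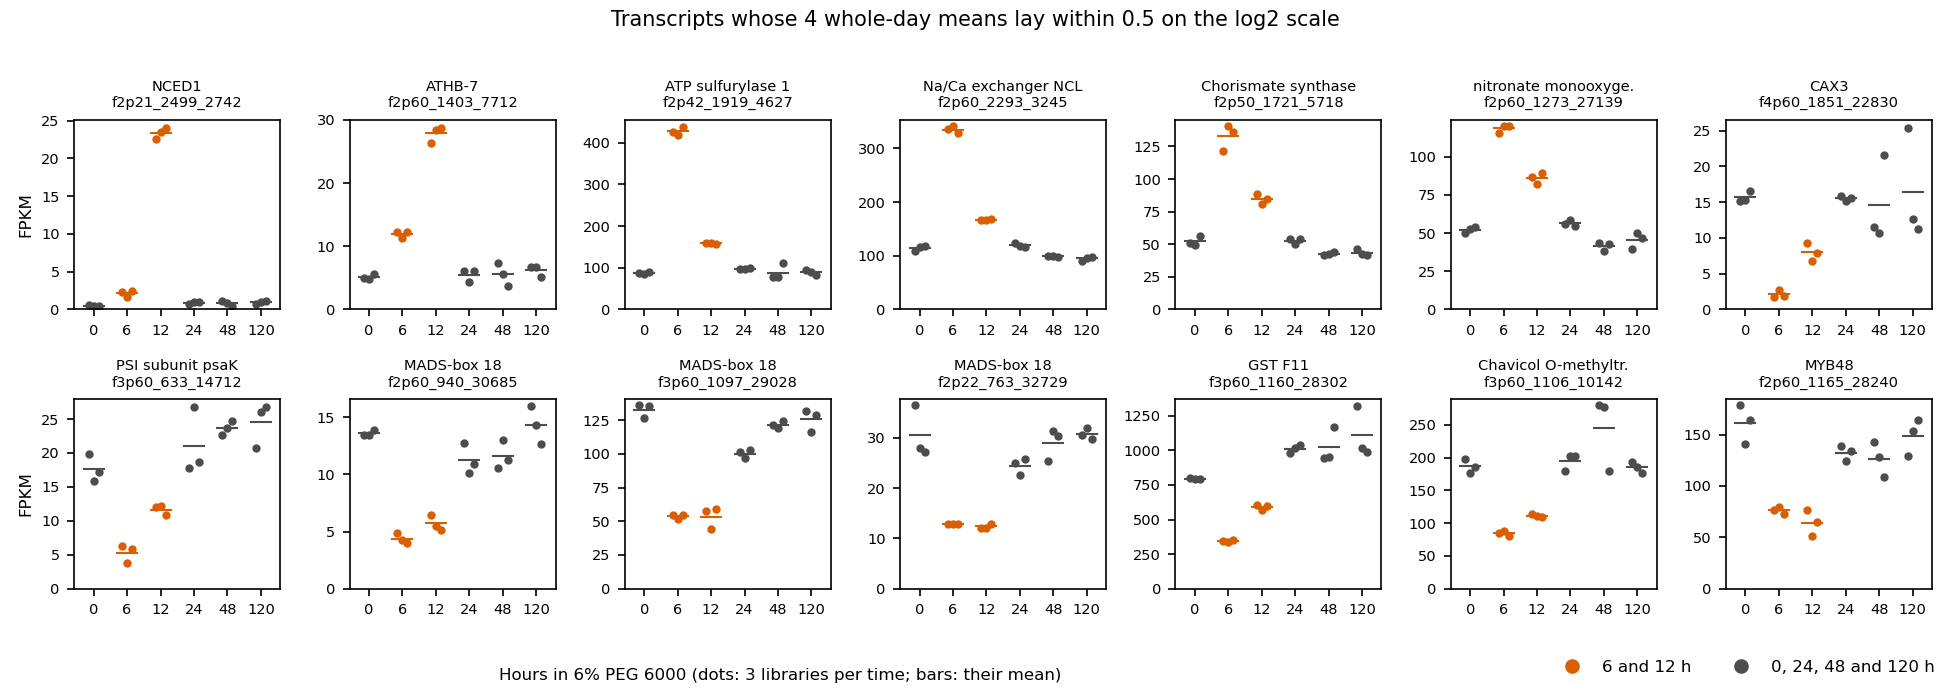
FPKM in each of the 18 libraries against hours in PEG for the 14 transcripts with a protein name whose libraries did not overlap and whose 4 whole-day means lay within 0.5 on the log2 scale, 6 higher (first 6 panels) and 8 lower. Bars are time means, orange marks 6 and 12 h and grey the other times. NCED1 and ATHB-7 are highest at 12 h, and the other 4 higher transcripts at 6 h.

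The times 6 and 12 h were not alike either. At 12 h 301 transcripts were higher than at 6 h (2.49% of all tested) and 198 lower (1.64%), together 4.13%. Of the 468 transcripts higher in the main comparison 55 were higher and 58 lower at 12 h than at 6 h, and of the 298 lower ones 47 were higher and 15 lower at 12 h. Compared alone with the whole-day times, 6 h had 1155 called transcripts, of which 657 were called in the main comparison with the same sign, and 12 h had 677, of which 498 were.

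**Figure D5:**
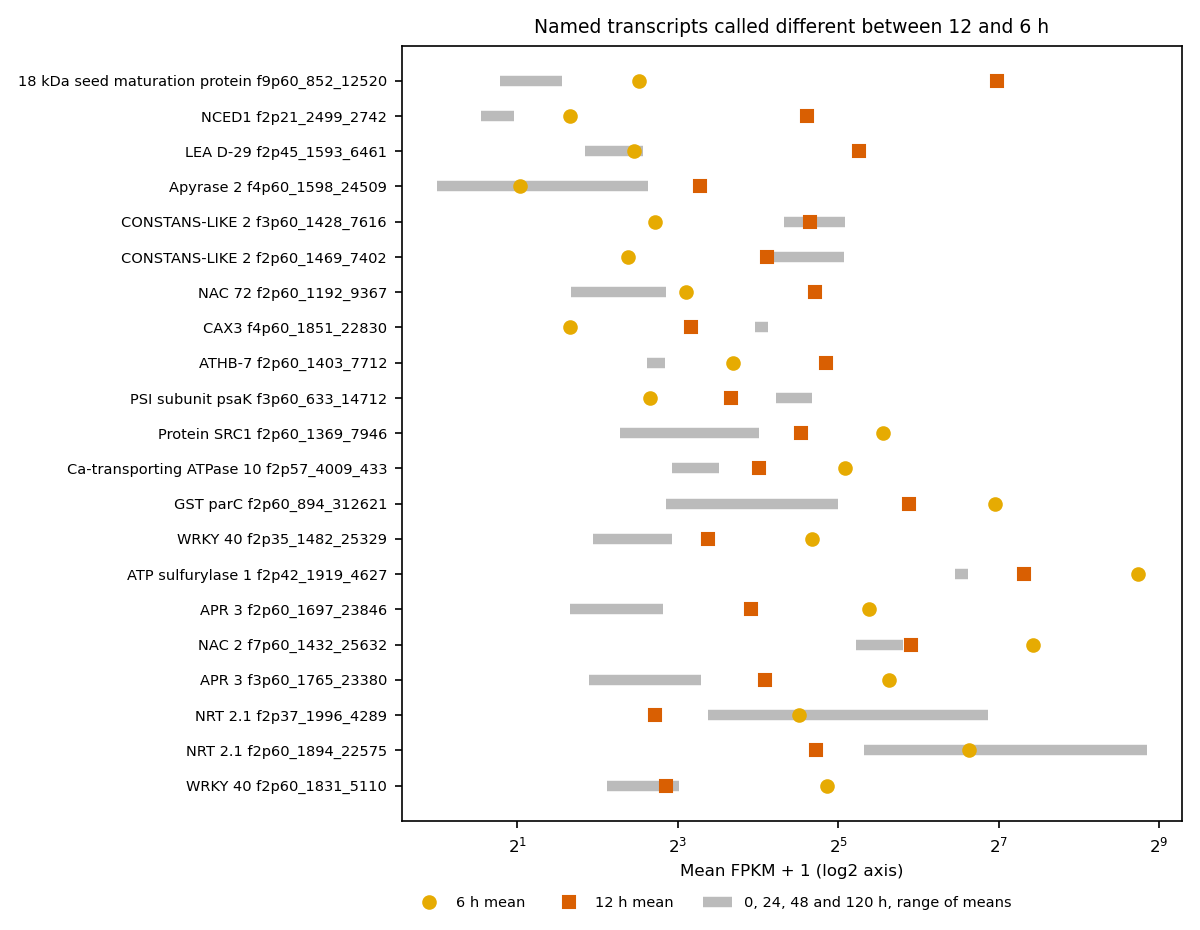
Mean FPKM + 1 on a log2 axis for the 21 named transcripts called in the main comparison that also differed between 12 h and 6 h, with circles for 6 h, squares for 12 h and grey bars for the range of the means at 0, 24, 48 and 120 h. The seed maturation protein, NCED1 and LEA D-29 are highest at 12 h, and the WRKY40, APR, ATP sulfurylase 1 and NAC2 transcripts at 6 h.

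The largest differences belonged to transcripts with no protein name. The transcript f4p60_784_13137 had 346 to 486 FPKM at 6 and 12 h and 0 to 196 FPKM at the other times (4.41 ± 0.20), and f2p60_902_11997 had 26.2 to 48.7 FPKM at 6 and 12 h and 0 to 5.87 FPKM at the other times (4.32 ± 0.27). Each was separate, and both were listed at or near 0 in the 0 h libraries. On the lower side f7p60_1590_6453 had 8.31 to 19.6 FPKM at 6 and 12 h and 52.5 to 348 FPKM at the other times (-3.57 ± 0.08), and f3p60_208_39796, only 208 bases long, was listed at 0 in all 6 libraries of 6 and 12 h and in 3 of the other 12.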

How the data were processed

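Roots of 18 samples at 6 times were sequenced. Per the labels and methods, the authors mapped paired-end reads to PacBio full-length transcripts and deposited FPKM for 12994 transcripts; the submitters' processing notes name RSEM 1.2.31 and HTSeq 0.6.0. FPKM depends on transcript length and on all other transcripts of the library, and RSEM shares reads between similar transcripts. Fragment counts were not used here, so precision is described by the replicate spread. The C columns of the table were taken to be 0 h, and the numbered T columns to be 6, 12, 24, 48 and 120 h in turn. The fold changes and p-values of the authors' own comparisons entered no test here, and only identifiers and annotations were taken from their tables for the analysis.

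Values were analysed as log2(FPKM + 1) for the 12080 transcripts that reached 1 FPKM in 3 or more libraries. The model had a mean for each of the 6 times over the 18 libraries (limma 3.58.1, R 4.3.3, with intensity trend, robust moderation and 12 residual degrees of freedom) and was tested on simulated data. The main comparison was the mean of the 6 and 12 h means minus the mean of the 0, 24, 48 and 120 h means. Adjusted p values in the text are Benjamini-Hochberg values of limma over all transcripts tested, with 3 libraries a time. Tables and plots used Python 3.11.15, pandas 2.3.3, numpy 2.4.6 and matplotlib 3.10.9.

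Lists were made by matching protein names. Named transcripts were all of the clock and CONSTANS-like list, the 12 largest differences in each direction with a protein name and separate libraries, up to 3 called per list, up to 8 in each direction with a whole-day range of at most 0.5, 4 in each direction by the difference of 12 h and 6 h, the 4 largest whole-day ranges, and the 2 largest in each direction without a protein name, 92 in all. Members, lists and tests were chosen with earlier results of these data known. Alternatives were other pseudocounts, filters, scalings, variance models and sets of times, long transcripts only, a replicate block and leaving out each library, and, chosen after seeing the data, leaving out both libraries that stood apart. No sequences of these transcripts were used here.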

Additional observations from a re-analysis of the deposited data

Results flagged for a closer look

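For 21 named transcripts called in the main comparison, the effects of 6 h and of 12 h against the same whole-day times differed from each other, by limma's test of 12 h minus 6 h at an adjusted p under 0.05 and an absolute difference of at least 1 on the log2 scale. The 12 h value was higher for the 18 kDa seed maturation protein f9p60_852_12520 (4.47), NCED1 f2p21_2499_2742 (2.97), LEA D-29 f2p45_1593_6461 (2.82), Apyrase 2 f4p60_1598_24509 (2.27), NAC72 f2p60_1192_9367 (1.62) and ATHB-7 f2p60_1403_7712 (1.16). It was also higher, which is nearer to the whole-day level, for the lower transcripts CONSTANS-LIKE 2 f3p60_1428_7616 (1.93) and f2p60_1469_7402 (1.74), CAX3 f4p60_1851_22830 (1.51) and psaK f3p60_633_14712 (1.03).

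The 12 h value was lower than that of 6 h for WRKY40 f2p60_1831_5110 (-2.01) and f2p35_1482_25329 (-1.29), APR f3p60_1765_23380 (-1.54) and f2p60_1697_23846 (-1.48), NAC2 f7p60_1432_25632 (-1.53) and ATP sulfurylase 1 f2p42_1919_4627 (-1.43). The same held for parC f2p60_894_312621 (-1.07), the calcium pump f2p57_4009_433 (-1.06) and SRC1 f2p60_1369_7946 (-1.03). The nitrate transporter 2.1 transcripts f2p60_1894_22575 (-1.91) and f2p37_1996_4289 (-1.79), which were lower at 6 and 12 h, were lower still at 12 h. Apyrase 2 was listed at 0 in 10 of the 12 whole-day libraries and at 7.46 and 8.13 FPKM in the other 2, both of 48 h, so its values rest on few libraries.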

How the results depend on the processing

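In the main comparison 468 transcripts were higher and 298 lower. Under the alternatives run, no transcript called in it and named here changed its direction. With 6 h alone 513 were lower. Without the fold minimum the counts were 3763 higher and 3858 lower in the main comparison, 2260 and 3117 for 12 h against 6 h, 3500 and 3666 against 0 h, 3761 and 3678 against 24, 48 and 120 h, 2330 and 2449 for 24, 48 and 120 h against 0 h, and 6360 for any difference among the whole-day times. With a pseudocount of 5 the comparison of 12 h with 6 h had 189 higher and 126 lower, that against the later times 271 higher, and that of the later times with 0 h 219 higher and 109 lower. Leaving out each library gave 456 to 485 higher and 289 to 313 lower in the main comparison, 278 to 320 and 188 to 207 for 12 h against 6 h, 688 to 712 and 458 to 479 against 0 h, 399 to 438 and 325 to 350 against the later times, 350 to 382 and 183 to 212 for the later times against 0 h, and 1188 to 1302 among the whole-day times. Of the 92 named transcripts, 23 fell short of the threshold with 12 h alone, 9 with 6 h alone, 21 with a pseudocount of 5 and 13 without 120 h.

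The replicate numbers did not pair the libraries, since deviations of same-numbered libraries had a median correlation of -0.022 over 45 pairs and 5 of 18 libraries correlated best with their own number. The replicate block gave 472 higher and 297 lower, 764 of them the same transcripts, and changed no call of a named transcript. Depth was not used, so differences of transcripts under a few FPKM or under 400 bases are limited by their replicate spread. Short transcripts added more to the higher calls (52 of 468) than to the lower ones (16 of 298). Of the 12080 tested, 294 were under 300 bases and 382 from 300 to under 400 bases. The lower calls were near that share and the higher calls above it.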
